A study of Macaca mulatta with 4 samples.

Results

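The hypoxia-inducible factors, the enzymes that sense oxygen for them and a few of their best known targets were examined in the RF/6A cell line from rhesus macaque (Macaca mulatta), whose cells are labelled as chorioretinal. The set was defined by symbol as HIF1A, EPAS1, EGLN1, EGLN2, EGLN3, VHL, HIF1AN, ADM, CA9 and BNIP3. Of these 10 genes, 7 were paired with a row among the 21314 rows of the count table. The other 3, EGLN1, VHL and CA9, were paired with none. They count here as not measured, which does not make them absent. The series asked whether RF/6A cells have an endothelial phenotype. Its 4 libraries form 1 group, titled static, of cells from a single purchased lot grown in serum-containing medium in a humidified CO2 incubator. No library is labelled as hypoxic, the oxygen level is not stated in the labels, and no other cell type or treatment was analysed here. The labels do not say whether separate cultures were sequenced. SDs therefore measure only the spread between these samples, which may be technical, and p-values refer to these samples alone.

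HIF1A and EPAS1 (also called HIF-2 alpha) encode the oxygen-regulated alpha subunits of a transcription factor whose stable partner is ARNT. With oxygen present, the prolyl hydroxylases EGLN1, EGLN2 and EGLN3 mark the alpha subunits for recognition by VHL and destruction, and the asparaginyl hydroxylase HIF1AN blocks their coactivator contact. This control acts on the protein, so transcript levels of HIF1A and EPAS1 do not report HIF activity. HIF1A is made in most cell types, whereas EPAS1 is enriched in endothelium and was first described there.

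Each library held between 20366946 and 20550610 estimated counts. Library 2 stood apart in composition: ribosomal protein genes took 16.15% of its counts against 6.47% to 7.11% in the other libraries, and the biological coefficient of variation that edgeR estimated for all genes together was 44.7% with it and 13.1% without it. Values are therefore given for each library, with and without library 2. Levels are CPM (counts per 1e6 counts) scaled by the trimmed mean of M-values (TMM). Relative to the median of the other libraries, the median gene lay at -0.07 log2 units in library 2 with TMM and at -0.49 with plain CPM, and directions in library 2 are read against those shifts. The labelled cell type was set beside its markers. Only 1 of 9 measured endothelial markers, PECAM1 (2.49 ± 0.636 CPM, SD, n = 4), reached 1 CPM in every library, and the summed level of the 9 ranged from 6.79 CPM in library 2 to 9.74 CPM. All 10 fibroblast and mesenchymal markers did, where 52.9% of all rows of the table did. Library 2 was lowest for 6 of these 10 and highest for 4 (7 and 3 with plain CPM), with FN1 at 3228 CPM against 12620 to 14908 CPM and VIM at 10605 CPM against 4350 to 5073 CPM.

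All 7 measured genes were expressed, meaning at 1 CPM or more in every library, where 52.9% of all rows of the table met that rule. The lowest was EGLN3, whose mean lay above 47.2% of the 17534 rows with a count, and the highest was EPAS1, above 98.8%. Counts were not divided by transcript length, for which no values were used here, so a difference between genes in CPM can in part be length. A length that is the same in every library cancels when ratios of the same 2 genes are compared across libraries. A length effect that differs between libraries would not cancel, and this was not tested.

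EPAS1 (ENSMMUG00000023326) measured 766 CPM in library 1, 325.9 CPM in library 2, 788.5 CPM in library 3 and 684.6 CPM in library 4. The mean was 641 ± 215 CPM (SD, n = 4), and 746 ± 54.7 CPM without library 2. Library 2 was the lowest, and the others lay within a coefficient of variation of 7.33%. An abundant EPAS1 transcript stood beside an endothelial marker list in which 8 of 9 measured genes missed 1 CPM in at least 1 library. Of these, KDR missed it in library 2 alone (0.432 CPM) and ESAM in library 4 alone (0.678 CPM). The others missed it in more than 1 library.

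HIF1A (ENSMMUG00000021002) measured 409.5 CPM in library 1, 52.3 CPM in library 2, 428 CPM in library 3 and 391 CPM in library 4. Its mean was 320 ± 179 CPM (SD, n = 4), and 409.5 ± 18.7 CPM without library 2. The 848 estimated counts in library 2 gave an exact 95% Poisson interval of 48.9 to 55.95 CPM, far below the 382.5 to 436.9 CPM spanned by the intervals of the other 3 libraries. Library 2 lay 7.76-fold below the median of the others. Poisson intervals cover counting error only.

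HIF1A was lower than EPAS1 in counts in 4 of 4 libraries. The difference of log2(CPM + 0.5), HIF1A minus EPAS1, was -1.30 ± 0.88 (SD, n = 4), with an exact two-sided sign-flip permutation p = 0.13 (2 of 16 sign assignments, the fewest that 4 libraries allow) and an adjusted p = 0.13 over the 2 gene pairs compared. Without library 2 the difference was -0.86 ± 0.05 (n = 3). EPAS1 counts were 1.87 times those of HIF1A in library 1, 1.84 times in library 3 and 1.75 times in library 4. The ratio was 6.23 in library 2, outside the narrow range of the others. The order in molecules is not given by these values: an effective EPAS1 transcript longer than that of HIF1A by more than these ratios would turn it.

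**Figure D1:**
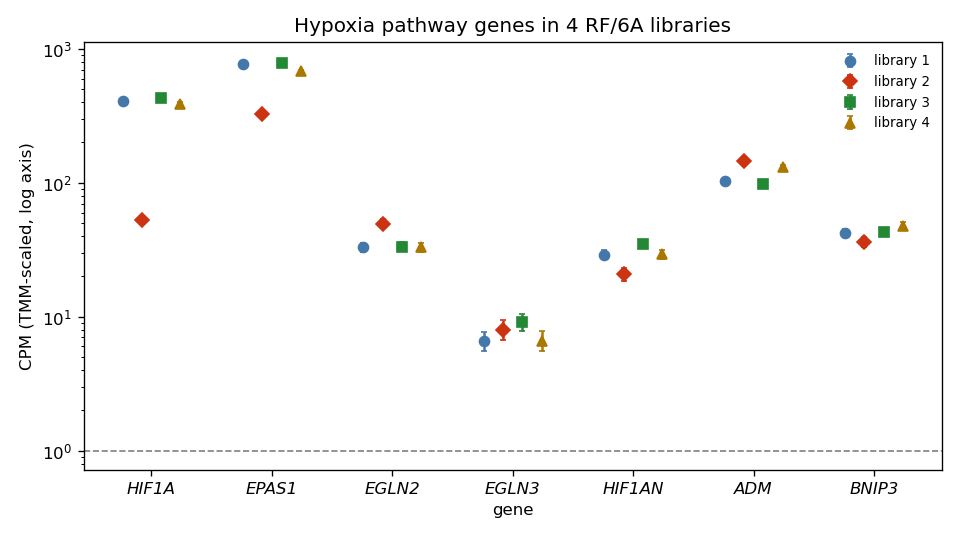
Points show TMM-scaled CPM on a log axis for the 7 measured genes, with a symbol for each library, the exact 95% Poisson interval as a bar (often smaller than the symbol) and a dashed line at 1 CPM. HIF1A falls to 52.3 CPM and EPAS1 to 325.9 CPM in library 2, while EGLN2 and ADM are highest there.

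The distance of library 2 was not alike for the 2 alpha subunits. The log2 ratio of library 2 to the median of the other libraries was -2.96 for HIF1A and -1.23 for EPAS1. Among the 12453 genes with a mean of 1 CPM or more, 4.12% had a lower ratio than HIF1A and 22.3% a lower ratio than EPAS1. With plain CPM the ratios were -3.40 and -1.67. Ribosomal protein share and composition moved with library 2, as given above, and their part in the HIF1A level was not tested.

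By a gap test (Dixon, at its 95% critical value for 4 samples), library 2 stood apart in 2 of the 7 genes, HIF1A on the low side and EGLN2 on the high side. With plain CPM the EGLN2 call was lost (a gap of 0.776 of its range) and that of HIF1A was not. A library stood apart in 33.8% of the 12453 genes. Library 2 was apart and lowest in 11.2% of them and apart and highest in 21.8%, so that count is near the background. With plain CPM these shares turned to 16.7% lowest and 11.5% highest. EPAS1 was not called, with a gap of 0.775 of its range.

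Among the oxygen sensors, EGLN2 (ENSMMUG00000001197), the prolyl hydroxylase also known as PHD1, measured 32.9 CPM in library 1, 49.7 CPM in library 2, 33.4 CPM in library 3 and 32.9 CPM in library 4. Libraries 1, 3 and 4 agreed to a coefficient of variation of 0.907%, and only 1.08% of genes had a smaller one. Their Poisson intervals spanned 30.5 to 35.9 CPM, wider than the spread of their values. This closeness is therefore not read as a trait of the gene. Library 2 lay above their median by 0.58 log2 units with TMM and 0.15 with plain CPM. EGLN3 (ENSMMUG00000000040), or PHD3, a hydroxylase that is itself a HIF target, was the lowest of the set.

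EGLN3 measured 6.55 CPM in library 1, 8.02 CPM in library 2, 9.08 CPM in library 3 and 6.60 CPM in library 4. Here library 3 was the highest, and its Poisson interval of 7.87 to 10.4 CPM lay above that of library 1 (5.53 to 7.71 CPM) and overlapped that of library 2. Library 2 lay at 0.26 log2 units from the median of the others with TMM and at -0.15 with plain CPM. The sign depended on the scaling, but both values lay above those of the median gene (-0.07 and -0.49).

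EGLN2 counts exceeded EGLN3 counts in 4 of 4 libraries. The difference of log2(CPM + 0.5), EGLN2 minus EGLN3, was 2.22 ± 0.30 (SD, n = 4), and 2.10 ± 0.24 without library 2 (exact two-sided sign-flip permutation p = 0.13, again the floor for 4 libraries, and adjusted p = 0.13). In counts the ratio ran from 3.68 in library 3 to 6.19 in library 2. As EGLN1, the main HIF hydroxylase of most cells, was not measured, the balance of the 3 paralogs cannot be given.

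HIF1AN (ENSMMUG00000006637), the asparaginyl hydroxylase also called FIH, measured 29.1 CPM in library 1, 20.8 CPM in library 2, 34.7 CPM in library 3 and 29.2 CPM in library 4. Library 2 was the lowest, at -0.48 log2 units from the median of the others, and the gap test did not call it. Counts of HIF1AN relative to HIF1A were 0.0711, 0.0811 and 0.0748 in libraries 1, 3 and 4 and 0.397 in library 2, a shift that came mostly from HIF1A.

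**Figure D2:**
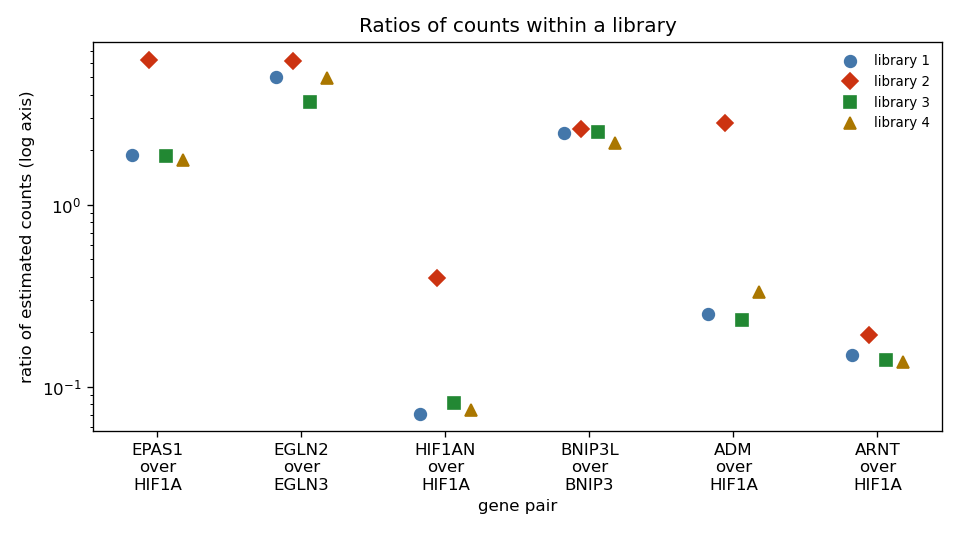
Each point is the ratio of estimated counts of 2 genes within 1 library, on a log axis, for 6 gene pairs. EPAS1, HIF1AN and ADM rise against HIF1A in library 2, to 6.23, 0.397 and 2.80. ARNT over HIF1A (0.136 to 0.15, and 0.193 in library 2) and BNIP3L over BNIP3 (2.17 to 2.60) vary less among the 4 libraries.

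Of the 3 listed targets, ADM and BNIP3 were measured. ADM (ENSMMUG00000016387), which encodes the vasodilator peptide adrenomedullin, measured 102 CPM in library 1, 147 CPM in library 2, 98.75 CPM in library 3 and 130 CPM in library 4. Libraries 2 and 4 were the high ones, and the interval of library 4 (125.5 to 135.1 CPM) lay above those of libraries 1 and 3, so the spread exceeded counting error without library 2 as well. The mean was 119.5 ± 22.9 CPM (SD, n = 4). Unlike HIF1A, ADM was not low in library 2, at 0.52 log2 units above the median of the others with TMM and 0.07 with plain CPM.

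BNIP3 (ENSMMUG00000022445), a mitochondrial protein that marks mitochondria for removal by autophagy, measured 42.5 CPM in library 1, 36.3 CPM in library 2, 42.8 CPM in library 3 and 47.85 CPM in library 4. Its coefficient of variation over 4 libraries was 11.2% with TMM, the lowest of the 7 genes, and 23.0% with plain CPM, where EGLN2 was lowest at 5.11%. The median over the 12453 genes was 35.1% with TMM. Library 2 was the lowest, at -0.24 log2 units from the median of the others. Its relative BNIP3L, another mitophagy receptor and HIF target, measured 103 ± 6.04 CPM (SD, n = 4) and kept a near constant ratio to BNIP3 of 2.49, 2.60, 2.52 and 2.17 in libraries 1 to 4.

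**Figure D3:**
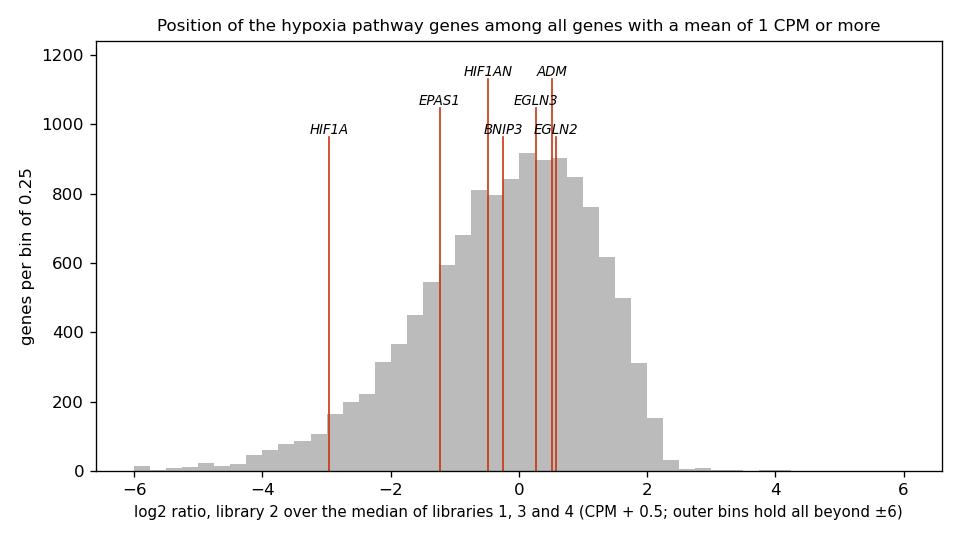
Grey bars count the 12453 genes with a mean of 1 CPM or more by the log2 ratio of library 2 to the median of libraries 1, 3 and 4 (horizontal axis, CPM + 0.5, bins of 0.25), and red lines mark the 7 measured genes. HIF1A at -2.96 lies in the low tail and EPAS1 at -1.23 on the low side, while the other 5 lie between -0.48 and 0.58.

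Other genes of the pathway were taken from lists of its parts, in which 88 of 105 listed genes were measured and 69 of those were expressed. The counts of expressed genes in each list are to be read beside the 52.9% of all rows that met the rule. All 5 partners and coactivators of the HIF alpha subunits were expressed. ARNT, the shared beta subunit, measured 61.2, 10.1, 59.8 and 53.1 CPM in libraries 1 to 4, and ARNT2, its relative, 32.8, 13.9, 35.8 and 28.7 CPM. The coactivators EP300 and CREBBP measured 86.1 ± 49.8 and 53.1 ± 30.9 CPM (SD, n = 4), with 12.5 and 7.22 CPM in library 2. HIF3A, the remaining alpha subunit, was near the threshold at 1.39 ± 0.235 CPM. Library 2 was the lowest for 4 of these 5 genes, HIF3A being the exception, and for 48.0% of the 12453 genes. The count ratio of ARNT to HIF1A was 0.136 to 0.15 in libraries 1, 3 and 4 and 0.193 in library 2. Of the 12453 genes, 6.77% had a lower log2 ratio of library 2 to the median of the others than ARNT. The shared low position of ARNT and HIF1A is therefore not read as particular to this pair.

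The ligase that VHL joins was seen through ELOC, CUL2 and RBX1, with ELOB and VHL not measured. ELOC, the elongin that binds VHL, measured 55.1, 149, 58.6 and 66.6 CPM in libraries 1 to 4, and RBX1, the RING subunit, 38.0, 105, 38.95 and 45.6 CPM. Both were highest in library 2. CUL2, the scaffold, measured 36.6 ± 7.93 CPM (SD, n = 4) and was lowest there, at 24.9 CPM. The measured subunits therefore did not move together in library 2. Over the 12453 genes library 2 was lowest for 48.0% and highest for 43.8%, so this split is not read as a trait of the complex.

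All 8 measured regulators of HIF were expressed. CITED2, which competes with HIF for its coactivators, measured 164 ± 15.7 CPM (SD, n = 4), and SIAH1 and SIAH2, ubiquitin ligases that act on the prolyl hydroxylases, 12.2 ± 1.03 and 54.6 ± 14.02 CPM. P4HTM, a transmembrane prolyl hydroxylase, measured 26.1 ± 13.6 CPM, with 46.4 CPM in library 2. OS9 measured 783 ± 313 CPM and RACK1, a ribosome-bound scaffold, 2213 ± 1677 CPM, with 1251 and 4727 CPM in library 2. MTOR, a kinase that promotes HIF1A synthesis, measured 39.9 ± 4.04 CPM, and the chaperone HSP90AB1 13.1 ± 4.63 CPM, a value made uncertain by close copies among which the reads may be shared. Library 2 was highest for 6 of the 8, and 5 with plain CPM, where it was highest for 43.8% of the 12453 genes with TMM.

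Other dioxygenases that use oxygen and 2-oxoglutarate were expressed in 12 of 15 measured cases. The highest were the procollagen hydroxylases PLOD2 at 416 ± 239 CPM and P4HA1 at 267 ± 84.9 CPM (SD, n = 4), both known HIF targets, and the histone demethylases KDM5C at 116.5 ± 32.2 CPM and KDM3A at 70.4 ± 15.3 CPM. Library 2 had 60.02 CPM of PLOD2 and 139.7 CPM of P4HA1. P4HA3 stayed below 1 CPM in every library (0.694 ± 0.188 CPM). The DNA demethylases TET1 and TET3 missed the rule through library 2 alone, at 0.123 and 0.0617 CPM against 6.56 to 8.10 and 12.6 to 16.4 CPM in the others.

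**Figure D4:**
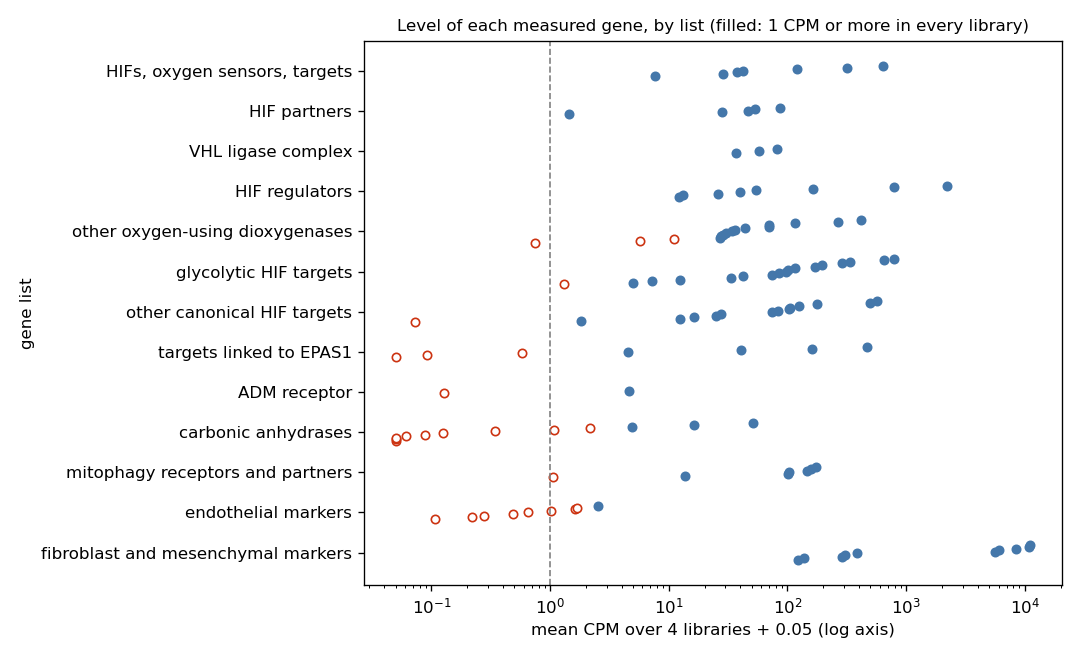
Each point is the mean level of a measured gene over 4 libraries, in CPM + 0.05 on a log axis and not divided by transcript length, with gene lists as rows. Filled points reached 1 CPM in every library. Carbonic anhydrases and endothelial markers have most of their open points below the dashed line at 1 CPM.

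Glycolytic enzymes and transporters that HIF induces were expressed in 16 of 17 measured cases. The list median was 6.20 ± 0.25 log2(CPM + 0.5) (SD, n = 4), where the median of all rows with a count was 3.13 ± 0.22. ALDOA measured 784 ± 334 CPM, LDHA, which makes lactate, 647 ± 167 CPM, GPI 337 ± 125 CPM and PGAM1 289 ± 31.2 CPM. These genes divided in library 2: 9 were lowest there and 8 highest, or 11 and 5 with plain CPM. LDHA was among the lowest, at 402 CPM, while ALDOA was among the highest, at 1277 CPM. PFKFB3, a regulator of glycolytic flux, ranged from 0.123 CPM in library 2 to 2.55 CPM in library 1 and was the only one not expressed.

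Of 14 other measured HIF targets, 13 were expressed, with a list median of 6.02 ± 0.29 log2(CPM + 0.5) (SD, n = 4). TFRC, the transferrin receptor, measured 565 ± 179 CPM, NDRG1 491 ± 152 CPM, STC2 177 ± 17.5 CPM and the angiogenic factor VEGFA 124 ± 51.8 CPM. VEGFA was lowest in library 2 at 49.9 CPM, against 129 to 165 CPM in the others. The chemokine receptor CXCR4 had single counts in libraries 1 and 3 and none in the others.

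Genes linked more to EPAS1 than to HIF1A were expressed in 4 of 7 measured cases, with a list median of 2.31 ± 0.14 log2(CPM + 0.5) (SD, n = 4). CCND1, the G1 cyclin, measured 621, 80.7, 611 and 572 CPM in libraries 1 to 4 and was low in library 2 to a degree like HIF1A (-2.91 log2 units). The membrane protease MMP14 measured 159 ± 15.7 CPM, the iron transporter SLC11A2 40.4 ± 17.4 CPM and the lipid droplet protein PLIN2 4.49 ± 0.488 CPM. EPO, the erythropoietin gene, had 0.0455 CPM in library 1, 0.123 CPM in library 2 and no count in libraries 3 and 4. TGFA had no count at all, and a count of 0 allows a level of up to 0.135 to 0.185 CPM in a library (3 counts, for counting error only). ANGPT2, an endothelial growth factor, stayed below 1 CPM in every library at 0.531 ± 0.177 CPM. Beside the high EPAS1 level this list was therefore mixed, with 4 genes expressed and EPO, TGFA and ANGPT2 below 1 CPM in every library. The share expressed was 57.1%, near the 52.9% of all rows of the table.

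Of the adrenomedullin receptor genes, CALCRL and RAMP2 were measured. CALCRL, its receptor subunit, measured 6.28, 1.36, 6.47 and 4.25 CPM in libraries 1 to 4. RAMP2, an accessory protein that makes CALCRL an adrenomedullin receptor, had 0.308 CPM in library 2 and no count in libraries 1, 3 and 4. RAMP1, RAMP3 and the related ligand ADM2 were not measured, so the other receptor pairings cannot be described.

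CA9, the carbonic anhydrase most often used as a hypoxia marker, was not measured, and 12 of its relatives were. Of these, 3 were expressed in every library: CA11, a catalytically inactive member, at 50.7 ± 30.4 CPM (SD, n = 4), the membrane-bound CA12, also a HIF target, at 16.1 ± 2.82 CPM, and the mitochondrial CA5B at 4.89 ± 1.70 CPM. CA12 measured 18.5, 12.3, 18.06 and 15.7 CPM in libraries 1 to 4. CA11 was highest in library 2 at 95.99 CPM. CA2 ranged from 0.617 CPM in library 2 to 3.46 CPM, and CA13 from 0.674 to 1.27 CPM. CA1, CA3, CA4 and CA14 stayed below 1 CPM in every library, and CA6, CA8 and CA10 had no count.

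Partners of BNIP3 in mitophagy were expressed in 6 of 7 measured cases. FKBP8, a mitophagy receptor, measured 174 ± 83.5 CPM, PHB2, a prohibitin, 156.5 ± 38.5 CPM and GABARAPL1, an autophagosome protein, 147 ± 21.4 CPM (SD, n = 4).

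**Figure D5:**
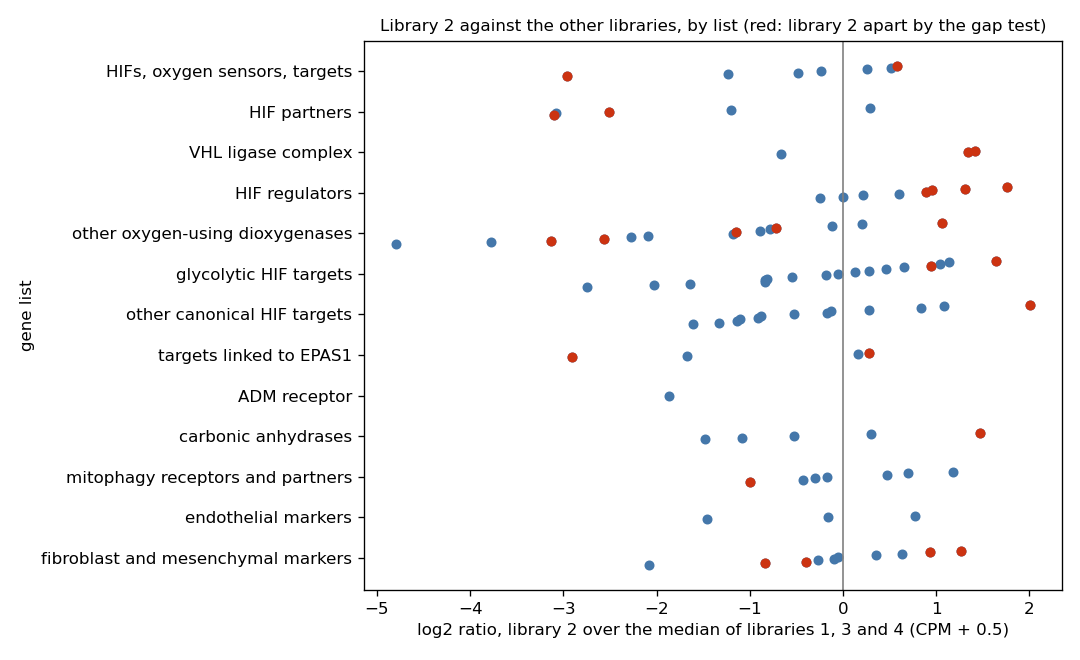
Each point is the log2 ratio of library 2 to the median of libraries 1, 3 and 4 (CPM + 0.5) for a measured gene with a mean of 1 CPM or more, with gene lists as rows and genes in which library 2 stood apart by the gap test in red. HIF partners lie mostly left of 0 (median -2.51) and HIF regulators mostly right of it (median 0.74).

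The profiles most like those of the alpha subunits were searched among 7421 other named genes with a mean of 10 CPM or more, by the Euclidean distance of log2(CPM + 0.5), centred on its mean, over 4 libraries. For HIF1A these were SLC44A1 (distance 0.0369), TAF2 (0.0466) and CALU (0.0524). For EPAS1 they were ZDHHC20 (0.0274), RIMOC1 (0.028) and INTS2 (0.0323). SLC44A1 measured 7.40 CPM in library 2 and 58.02 to 64.2 CPM in the others, and ZDHHC20 measured 45.2 CPM and 94.7 to 107.5 CPM. Likeness over 4 libraries mostly reflects the position of library 2.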

How the data were processed

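The authors deposited estimated counts per Ensembl rhesus gene as whole numbers, in 1 table for 4 libraries. Salmon and DESeq2 are named, without versions or roles, per the submitters' processing notes, and no build, annotation or strandedness is named in the sources used here. Salmon shares reads among similar transcripts, so genes with close copies carry an assignment error. Symbols came from a table of Ensembl identifiers, which named 14654 of 21314 rows. Unnamed rows held 13.1% to 21.7% of a library. A symbol on 2 rows (FUNDC1) was not used. Totals were 20366946 to 20550610 counts, and after TMM scaling 1 count was worth 0.0449 to 0.0617 CPM.

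Counts were scaled with TMM in edgeR 4.0.16 under R 4.3.3, with a pseudocount of 0.5 CPM on log2 values. The planned division by transcript length could not be made, since no transcript or protein lengths were used here, and pairs with EGLN1 were not tested. Gene pairs were compared by exact sign-flip permutation with Benjamini-Hochberg adjustment. Code was tested on simulated libraries. The genes and lists were chosen with earlier results of these data known. Named were the whole set, all measured HIF partners, ligase subunits, regulators and adrenomedullin receptor genes, the 4 highest and every unexpressed gene of other lists (for markers, only those needed as a check, and 1 gene is not reported here), and the 3 nearest profiles of HIF1A and EPAS1. LDHA and ALDOA in library 2 serve as examples. DESeq2 1.42.0 size factors, plain CPM, a filterByExpr filter (minimum count 10), other thresholds and pseudocounts, and leaving out each library were the alternatives.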

Additional observations from a re-analysis of the deposited data

Results flagged for a closer look

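Of 79 named list genes, 23 had a library far from the other 3 by the gap test. Chance gives about 1 in 20, but these libraries have a higher share over all genes: of the 60 named genes with a mean of 1 CPM or more, 19 (31.7%) had such a library, against 33.8% of all 12453 genes. Over the 79 genes, library 2 was low in 7, high in 13, and another library was high in 3. The balance depends on the scaling: over the 60 genes library 2 was low in 7 and high in 12 with TMM, and low in 9 and high in 1 with plain CPM. These share a library and are not independent. Causes were not tested.

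Library 2 was low for HIF1A (52.3 CPM), its partners ARNT (10.1 CPM) and CREBBP (7.22 CPM), the hydroxylases PLOD2 (60.02 CPM) and P4HA1 (139.7 CPM), the demethylase KDM3A (47.6 CPM) and CCND1 (80.7 CPM).

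Library 2 was high for EGLN2 (49.7 CPM), the ligase subunits ELOC (148.9 CPM) and RBX1 (105.2 CPM), the regulators RACK1 (4727 CPM), OS9 (1251 CPM), P4HTM (46.4 CPM) and HSP90AB1 (19.9 CPM), and GPI (522 CPM), MMP14 (182.8 CPM) and CA11 (95.99 CPM). It was also high for the mesenchymal markers COL1A1 (16445 CPM) and VIM (10605 CPM), while it was apart and low for PDGFRB (185.4 CPM) and DCN (247.2 CPM), which are outside the 79 genes and were picked once their values had been seen. It was high for RAMP2 (0.308 CPM, with no count elsewhere). These are TMM values. With plain CPM, MMP14 was instead lowest in library 2, at 145.1 CPM against 162.1 to 166.8 CPM in the others.

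The others were low-count genes: CA14 in library 4 (0.769 CPM), CA1 in library 4 (0.0452 CPM) and the endothelial marker EMCN in library 1 (0.682 CPM).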

How the results depend on the processing

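The number of measured genes in which 1 library stood apart was 2 with TMM and with DESeq2 size factors, and 1 with plain CPM, where EGLN2 was lost. All 7 genes passed as expressed under every scaling, filter, threshold (0.5 and 5 CPM) and left-out library tried. Of the 88 pathway genes, 62 to 73 passed under these alternatives, against 69. HIF1A minus EPAS1 ranged from -1.47 to -0.86 and EGLN2 minus EGLN3 from 2.11 to 2.34 when a library was left out and the rest were rescaled. Library 2 decides the size of the first, which was -0.86 without it and -1.47 to -1.44 without another. Pseudocounts of 0.1 and 1 gave -1.31 and -1.30, and 2.27 and 2.15. With 3 libraries the test cannot go below 0.25. Of 49 alternative values for the levels of single genes, 48 moved by less than 1 SD over all libraries. The exception was BNIP3 without library 2 (47.96 CPM after rescaling, against 42.4 CPM). That SD includes library 2, which widens it for HIF1A and EPAS1, so less than 1 SD need not be a small move. Without library 2, HIF1A went from 320.2 to 442.3 CPM and EPAS1 from 641.2 to 806.2 CPM after rescaling. Division by transcript length and the EGLN1 pairs were not run. No paired analysis was possible because there is only 1 group. Depth limits the genes with few counts, such as EPO, CXCR4 and RAMP2.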
